A study of Mus musculus with 15 samples.

Results

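Mouse embryonic fibroblasts (MEFs) of 2 backgrounds were given Mta1, and the RNA response to Mta1 in the Mta1-KO background was set against the response in the P53-KO background. For each of 16755 probe rows the contrast was (Mta1-KO/Mta1 minus Mta1-KO) minus (P53-KO/Mta1 minus P53-KO), so a positive value means that the response was higher in the Mta1-KO background. It used 12 of the 15 arrays, 3 in each group, and all 16755 rows of the table. Mta1-KO/Mta1 are Mta1-/- MEFs into which Mta1 was transfected, and Mta1-KO are Mta1-/- MEFs, both from embryos of day 9.0. P53-KO/Mta1 are P53-/- MEFs in which Mta1 was overexpressed, and P53-KO are P53-/- MEFs, both from embryos of day 12.5. WT are MEFs of wild-type embryos of day 9.0, and all mice were C57BL/6J. The backgrounds differ in the Mta1 genotype as well, and the paper states that the P53-KO MEFs were provided by another laboratory. The P53 genotype, the Mta1 genotype, the age of the embryos and the source of the cells therefore cannot be told apart. The sources used here do not say whether Mta1-KO and P53-KO cells carried an empty vector, and they describe the arrays of a group as biological replicates without saying whether these were separate embryos or cultures. The p-values measure the spread between these replicates.

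MTA1 is a subunit of the NuRD complex, which joins a nucleosome remodeler to histone deacetylases and lowers or raises transcription depending on its partners. P53 is a transcription factor that arrests the cell cycle or starts apoptosis after DNA damage, and MTA1 has roles tied to P53 and roles apart from it. The study asked which genes answer to Mta1 in the presence and in the absence of P53. Fibroblasts make and turn over the extracellular matrix, release chemokines and acute phase proteins, and respond to interferon.

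The deposited values are log2 values, and the median of each row over the 15 arrays is 0, so they show how arrays differ and not how strongly a gene was expressed. Within groups the arrays correlated across rows with r from 0.868 to 0.961, array medians lay between -0.0165 and 0.0231, and 15 of 15 arrays were nearest to both of their replicates. Of 9 fibroblast markers, which include Col1a1, Vim and Thy1, 0 were called for the contrast. With no minimum fold 7 of the 9 were lower with Mta1 in the Mta1-KO background (15.7% of all rows were) and 7 in the P53-KO background (14.2% of all rows), with median responses of -0.53 and -0.60. Of 7 macrophage and blood, 6 endothelial, 5 epithelial and 4 muscle markers 0 were called. Of 5 neural markers 1 was, Sox2, described below. In bulk RNA, fewer cells of a type and less RNA per cell cannot be told apart, which holds for every result here. The row of Mta1 itself had log2 values of -1.13, -1.35 and -1.28 in Mta1-KO/Mta1 and -1.06, -1.08 and -1.10 in Mta1-KO, and of 0.65, 0.76 and 0.65 in P53-KO/Mta1 and 0.36, 0.52 and 0.37 in P53-KO. The row was thus no higher with introduced Mta1 in the Mta1-KO background (response -0.17), and it was 0.27 higher in the P53-KO background. WT lay at 0.08, -0.06 and 0. The paper compared Mta1 protein in all 5 groups by Western blot, and the RNA values here do not measure protein. Whether the probes of the Mta1 row read the introduced sequence was not tested, and the groups are named as labelled.

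The genes whose responses to Mta1 differed between the backgrounds included the proteases Mmp13 and Mmp3 and the acute phase proteins Lbp and Saa3. Among them were also the matrix proteins Postn and Ogn, the WNT inhibitors Sfrp1 and Sfrp2 and the interferon-induced genes Ifi27l2a and Gvin1. Most members of the lists these genes belong to were not called, as the counts below show. In 4 genes both responses passed 2-fold in opposite directions. Further called rows had responses of opposite sign of which 1 or both were under 2-fold. A row was called where limma gave an adjusted p (Benjamini-Hochberg) below 0.05 and the log2 difference was 1 or more in either direction, a fold of 2. By this rule 273 of 16755 rows (1.63%) were called, 164 higher in the Mta1-KO background (0.979%) and 109 lower (0.651%). The counts of list members given below are to be read beside these shares. The lists were chosen with earlier results of these data known, so their counts describe a pathway and do not test it. With no minimum fold, 1225 rows (7.31%) were higher and 1688 (10.1%) lower. The median response difference over all rows was -0.0070, with quartiles of -0.16 and 0.11. Of the called rows 241 carry a single gene, which makes 239 genes, 20 carry several genes and 12 carry none. Just inside the fold limit 62 rows lay between 1 and 1.1, and just outside it 93 rows lay between 0.9 and 1.

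In most of the rows called unlike, 1 response was called and the other was not. For the response in Mta1-KO MEFs 54 rows were called up (0.322% of all rows) and 132 down (0.788%), and for the response in P53-KO MEFs 66 were called up (0.394%) and 205 down (1.22%). Of the 273 rows called unlike, 59 had a called response in the Mta1-KO background only, 37 of them down and 22 up. Another 127 had one in the P53-KO background only, 100 down and 27 up. Here and below, only means that the response in the other background was not called, and that response may still be a smaller change. In 7 rows both responses were called in the same direction and one was at least 2-fold stronger, and in 4 rows they were called in opposite directions. For the last 76 rows neither response was called, and 32 of them were higher and 44 lower in the Mta1-KO background. After quantile normalization of the arrays the counts of the responses split differently, 120 up and 119 down for the response in Mta1-KO MEFs and 85 up and 157 down for the response in P53-KO MEFs.

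**Figure D1:**
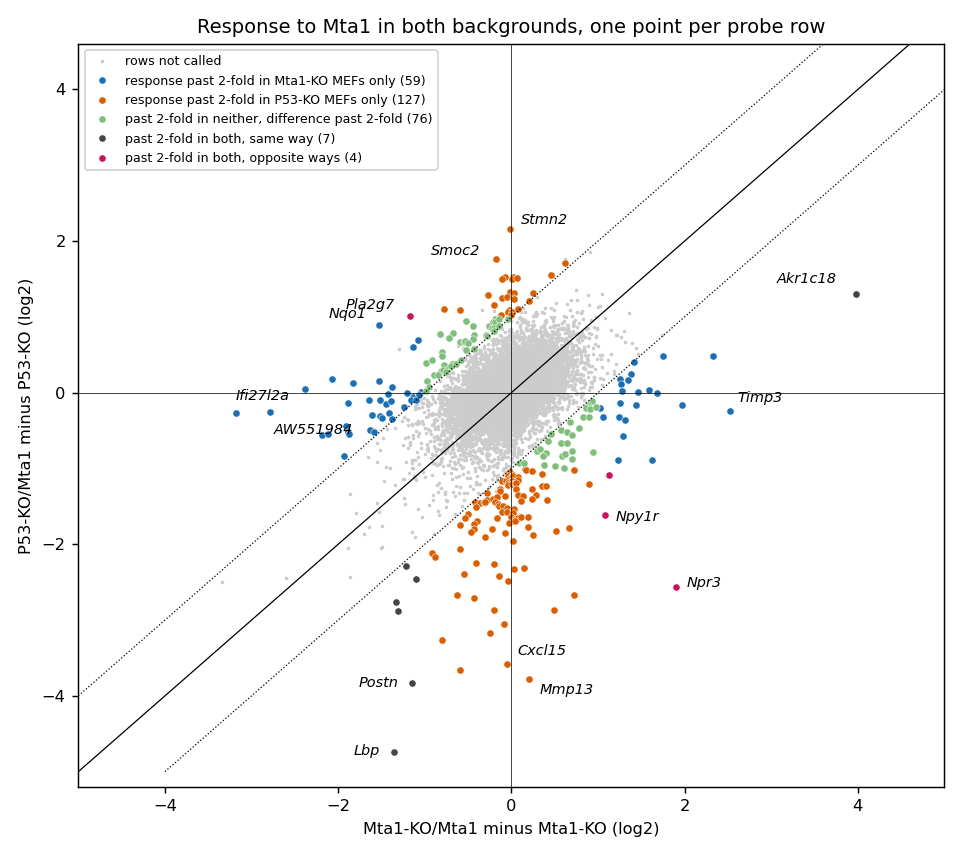
Response to Mta1 in the Mta1-KO background (x axis, log2) against the response in the P53-KO background (y axis, log2), 1 point per probe row, with the called rows coloured by the background whose own response was called. The solid line marks equal responses and the dotted lines a difference of 1; the 59 rows called in Mta1-KO MEFs only lie to the left and right of the centre, and the 127 called in P53-KO MEFs only lie mostly below it.

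Npr3, the clearance receptor that removes natriuretic peptides, had the largest of the 273 called differences and went opposite ways. Its log2 values were 0.54, 0.49 and 0.51 in Mta1-KO/Mta1 and -1.37, -1.49 and -1.29 in Mta1-KO. In the other background they were -1.95, -2.04 and -1.90 in P53-KO/Mta1 and 0.60, 0.52 and 0.69 in P53-KO. The 3 arrays of each group stayed apart from those of its partner in both backgrounds, and Mta1-KO/Mta1 and P53-KO ended at a like level. Npr3 rose by 1.90 in Mta1-KO/Mta1 and fell by 2.57 in P53-KO/Mta1, a response difference of 4.46 (standard error 0.089, adjusted p = 1.89e-12 from limma).

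Npy1r, a receptor of neuropeptide Y, and Tmem45a, a transmembrane protein, did the same. Npy1r had values of -0.41, -0.44 and -0.55 in Mta1-KO/Mta1 and -1.58, -1.78 and -1.27 in Mta1-KO, and of -0.02, 0 and 0.54 in P53-KO/Mta1 and 1.69, 1.77 and 1.91 in P53-KO, a difference of 2.70 (standard error 0.212, adjusted p = 1.19e-06 from limma). Tmem45a had values of -0.45, -0.40 and -0.22 in Mta1-KO/Mta1 and -1.56, -1.39 and -1.49 in Mta1-KO, and of 0.80, 0.60 and 1.08 in P53-KO/Mta1 and 1.59, 2.23 and 1.92 in P53-KO, a difference of 2.21 (standard error 0.222, adjusted p = 1.34e-05 from limma). For both genes the arrays with Mta1 lay between Mta1-KO at the low end and P53-KO at the high end. Pla2g7, the secreted hydrolase of platelet-activating factor, went the other way. It had values of 1.13, 1.20 and 1.30 in Mta1-KO/Mta1 and 2.25, 2.47 and 2.41 in Mta1-KO, and of -0.15, -0.39 and -0.20 in P53-KO/Mta1 and -1.34, -1.12 and -1.31 in P53-KO, so it fell by 1.17 in Mta1-KO/Mta1 and rose by 1.01 in P53-KO/Mta1 (response difference -2.17, adjusted p = 6.99e-08 from limma). Here too the arrays with Mta1 of both backgrounds lay inside the range set by Mta1-KO and P53-KO. After quantile normalization the responses of Pla2g7 were -0.54 in Mta1-KO/Mta1, against 0.84 in P53-KO/Mta1, neither of them called, and the response of Tmem45a in P53-KO/Mta1 was -0.80 and not called. The differences of both genes stayed called (-1.38 and 2.02).

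Matrix proteases were among the genes that fell past 2-fold in P53-KO/Mta1 alone, and Mmp13 had the largest difference of these. Mmp13, collagenase 3, had log2 values of 0, 0.04 and -0.09 in Mta1-KO/Mta1 and -0.10, -0.31 and -0.25 in Mta1-KO. In the P53-KO background it had 0.96, 0.85 and 0.82 in P53-KO/Mta1 and 4.58, 4.67 and 4.73 in P53-KO. The P53-KO arrays stood far above all others, and WT lay at -0.32, -0.40 and -0.11. Mmp13 had a response of 0.20 in Mta1-KO/Mta1 and fell by 3.78 in P53-KO/Mta1, a fold of 13.8, which gave a response difference of 3.98 (standard error 0.111, adjusted p = 5.38e-11 from limma).

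The stretches around the AP-1 motif (TGANTCA, bound by FOS and JUN) nearest the start of both leading protease genes are shown, since these genes gave large differences. They are from RefSeq (GRCm38.p6), run 5′ to 3′ on the strand of the gene, and have the motif in capitals.
Mmp13, AP-1 motif, plus strand, chr9:7272459-7272505: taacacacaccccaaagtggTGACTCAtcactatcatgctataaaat
Mmp3, AP-1 motif, plus strand, chr9:7445756-7445802: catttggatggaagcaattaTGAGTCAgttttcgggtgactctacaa
The first base of the motif lies 35 bases before the start in Mmp13 and 46 in Mmp3.

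Mmp3, stromelysin 1, which cleaves several matrix proteins and activates other proteases, repeated this pattern. Its values were -0.15, 0.02 and 0 in Mta1-KO/Mta1 and -0.68, -0.44 and -0.49 in Mta1-KO, and 1.12, 0.86 and 1.13 in P53-KO/Mta1 and 3.78, 4.07 and 3.85 in P53-KO, a response difference of 3.35 (standard error 0.139, adjusted p = 2.31e-09 from limma). The aggrecanases Adamts1 and Adamts5, neighbours on mouse chromosome 16, had responses of -0.47 and 0.08 in Mta1-KO/Mta1 and fell by 1.84 and 1.15 in P53-KO/Mta1. Of 24 metalloproteases and inhibitors measured, 5 were called higher in the Mta1-KO background (0.979% of all rows) and 1 lower (0.651% of all rows). The list median was 0.13. The protease called lower was gelatinase B, Mmp9, which fell by 1.39 in Mta1-KO/Mta1 against -0.12 in P53-KO/Mta1. The other 18, among them Mmp2, Mmp14 and Timp2, were not called. Mmp2, gelatinase A, had like responses, -0.92 in Mta1-KO/Mta1 against -1.09 in P53-KO/Mta1.

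The fifth gene called higher was not a protease. Timp3, the matrix-bound inhibitor of metalloproteases, had log2 values of -0.75, -0.73 and -0.79 in Mta1-KO/Mta1 and -3.22, -3.13 and -3.49 in Mta1-KO, and of 0, -0.04 and 0.0033 in P53-KO/Mta1 and 0.21, 0.22 and 0.28 in P53-KO. The Mta1-KO arrays lay well below all others, and WT lay at 0.44, 0.29 and 0.23. It rose by 2.52 in Mta1-KO/Mta1, a fold of 5.75, against -0.25 in P53-KO/Mta1, a difference of 2.77 (standard error 0.112, adjusted p = 2.19e-09 from limma).

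**Figure D2:**
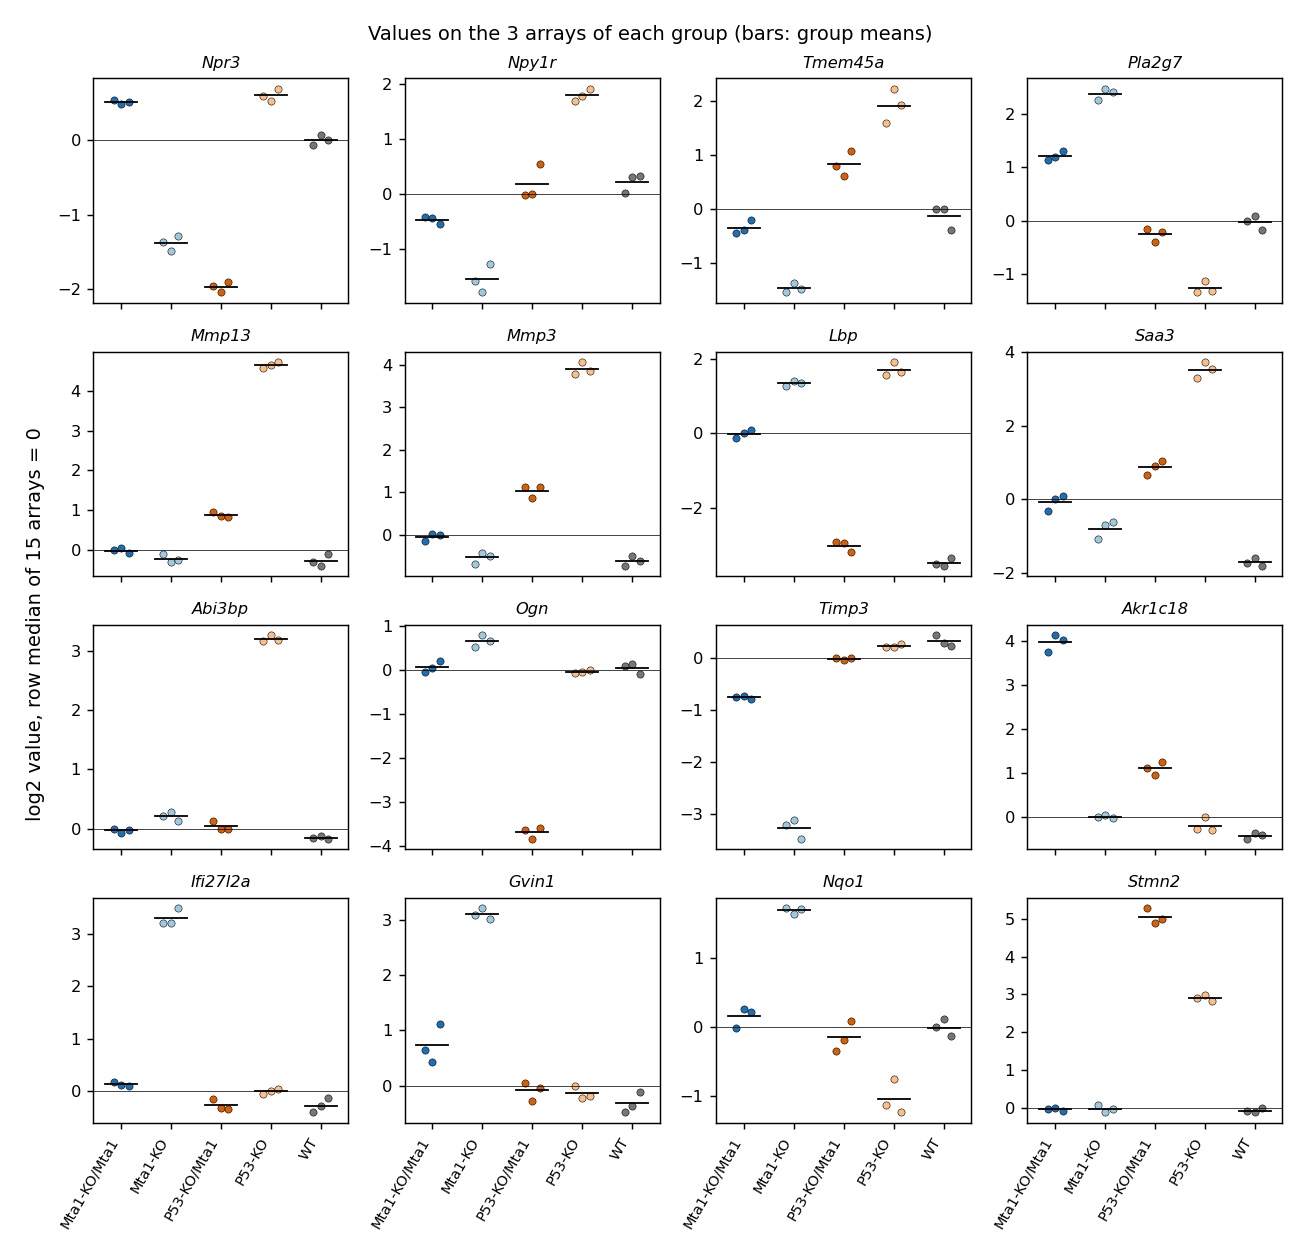
Log2 values of 16 genes on the 3 arrays of each group (points) with the group means (bars), each gene on its own y axis and the row median of the 15 arrays at 0. Npr3, Npy1r, Tmem45a and Pla2g7 move in opposite directions in both backgrounds. Mmp13, Mmp3, Saa3 and Abi3bp stand highest in P53-KO, and Ifi27l2a and Gvin1 stand highest in Mta1-KO.

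Among acute phase proteins, which the liver and stromal cells release in inflammation, 6 of 19 were called. They fell in P53-KO/Mta1, and the fall was weaker or absent in Mta1-KO/Mta1. Lbp, which hands bacterial lipopolysaccharide to its receptor, had values of -0.12, 0 and 0.08 in Mta1-KO/Mta1 and 1.29, 1.40 and 1.35 in Mta1-KO, and of -2.92, -2.95 and -3.18 in P53-KO/Mta1 and 1.58, 1.93 and 1.65 in P53-KO. The Mta1-KO and P53-KO arrays started near each other (starting difference -0.37), and the P53-KO/Mta1 arrays ended far below Mta1-KO/Mta1. Lbp fell in both backgrounds, with -1.36 in Mta1-KO/Mta1 against -4.74 in P53-KO/Mta1, a response difference of 3.38 (standard error 0.135, adjusted p = 2.19e-09 from limma).

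Saa3, a serum amyloid A made outside the liver, had values of -0.30, 0 and 0.09 in Mta1-KO/Mta1 and -1.07, -0.69 and -0.62 in Mta1-KO, and of 0.66, 0.90 and 1.06 in P53-KO/Mta1 and 3.32, 3.74 and 3.55 in P53-KO. WT lay lowest, at -1.74, -1.59 and -1.80. Unlike Lbp, Saa3 started far lower in Mta1-KO than in P53-KO (starting difference -4.33). It rose by 0.72 in Mta1-KO/Mta1 and fell by 2.66 in P53-KO/Mta1. The response difference was 3.38 (standard error 0.204, adjusted p = 8.23e-08 from limma). Lcn2, which withholds bacterial siderophores, had a response of -0.80 in Mta1-KO/Mta1 and fell by 3.26 in P53-KO/Mta1, and Itih2, a heavy chain of the inter-alpha-trypsin inhibitor that binds hyaluronan, had -0.43 in Mta1-KO/Mta1 against -2.71 in P53-KO/Mta1. Steap4, a metalloreductase, and Il1rn, the interleukin 1 receptor antagonist, fell in both backgrounds, with responses of -1.33 and -1.21 in Mta1-KO/Mta1 against -2.76 and -2.28 in P53-KO/Mta1. Of 19 acute phase genes measured 6 were called higher in the Mta1-KO background (0.979% of all rows) and 0 lower (0.651% of all rows). The list median was 0.07. The other 13 were not called, 11 of them with differences between -0.16 and 0.13. Of the 33 chemokines and cytokines 2 were called higher and 0 lower, with a median of -0.05, or 0.0057 after quantile normalization. The CXC chemokine Cxcl15 had a response of -0.06 in Mta1-KO/Mta1 and fell by 3.58 in P53-KO/Mta1, a response difference of 3.52 (standard error 0.112, adjusted p = 2.30e-10 from limma), and the alarmin Il33 had -0.31 in Mta1-KO/Mta1 against -1.91 in P53-KO/Mta1. Chemokines and cytokines outside this list were not counted. Among those, Cxcl11, Il7 and Tnfsf10 were called lower, with response differences of -1.56, -1.68 and -1.55.

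The promoter of Saa3 holds the interferon response motif (GAAANNGAA, in capitals), and the stretch is shown for comparison with the interferon genes below (GRCm38.p6, strand of the gene).
Saa3, interferon response motif, minus strand, chr7:46715773-46715821: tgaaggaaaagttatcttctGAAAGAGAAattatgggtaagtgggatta
Its first base lies 125 bases before the start. The promoter of Mmp13 holds 2 matches of this motif as well.

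Matrix proteins followed. Periostin, Postn, a matricellular protein that supports cell spreading, had values of 0.46, 0.52 and 0.57 in Mta1-KO/Mta1 and 1.60, 1.75 and 1.63 in Mta1-KO, and of -3.75, -3.89 and -3.88 in P53-KO/Mta1 and 0.07, -0.08 and 0 in P53-KO, with WT at -3.89, -3.81 and -4.13. In P53-KO/Mta1 it came down to the range of WT, while Mta1-KO/Mta1 stayed far above it. It fell in both backgrounds, with -1.14 in Mta1-KO/Mta1 against -3.84 in P53-KO/Mta1, a response difference of 2.69 (standard error 0.111, adjusted p = 2.31e-09 from limma). Osteoglycin, Ogn, a small leucine-rich proteoglycan, had values of -0.04, 0.04 and 0.20 in Mta1-KO/Mta1 and 0.53, 0.80 and 0.65 in Mta1-KO, and of -3.64, -3.85 and -3.60 in P53-KO/Mta1 and -0.06, -0.05 and 0 in P53-KO. P53-KO, Mta1-KO/Mta1 and WT lay close together for Ogn, and the P53-KO/Mta1 arrays were far lower. Its difference was 3.07 (standard error 0.125, adjusted p = 2.21e-09 from limma).

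Abi3bp, an extracellular protein linked to cell senescence, had values of -0.01, -0.07 and -0.02 in Mta1-KO/Mta1 and 0.21, 0.29 and 0.13 in Mta1-KO, and of 0.13, -0.01 and 0 in P53-KO/Mta1 and 3.17, 3.27 and 3.20 in P53-KO. Its P53-KO arrays alone were high, and the response difference was 2.93 (standard error 0.076, adjusted p = 3.00e-11 from limma). Svep1, a large adhesion protein, had a response of -0.04 in Mta1-KO/Mta1 and fell by 2.48 in P53-KO/Mta1, and Sned1 fell in both backgrounds (-1.10 in Mta1-KO/Mta1 against -2.46 in P53-KO/Mta1). Of 40 matrix proteoglycans and matricellular proteins measured 7 were called higher in the Mta1-KO background and 1 lower, with a median of 0.10. The shares of all rows called higher and lower were 0.979% and 0.651%. After quantile normalization 6 members of the list were higher and 3 lower. The gene called lower, Smoc2, which binds calcium and growth factors in the matrix, rose in P53-KO/Mta1: its values were -0.25, -0.22 and -0.38 in Mta1-KO/Mta1 and -0.04, -0.27 and 0 in Mta1-KO, and 2.47, 2.68 and 2.62 in P53-KO/Mta1 and 0.71, 0.90 and 0.86 in P53-KO, a difference of -1.95 (adjusted p = 1.60e-07 from limma). Aspn, of the same proteoglycan family as Ogn, gave values of -3.35 in Mta1-KO/Mta1 against -2.49 in P53-KO/Mta1, and its difference of -0.85 was not called. Of 25 collagens, 2 were called higher (0.979% of all rows), Col11a1 (1.41) and Col14a1 (1.10). The median of the list was 0.15, or -0.0091 after quantile normalization. Under that scaling Col14a1 was not called (0.99), and 1 collagen was higher and 1 lower. Col1a1 and Col3a1 had differences of 0.56 and -0.30 and were not called. Both are among the 9 fibroblast markers, 7 of which were lower with Mta1 in each background with no minimum fold, and their part in the falls of matrix genes was not tested.

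Secreted signals and their receptors were also among the falls of P53-KO/Mta1. Sfrp1 and Sfrp2, secreted proteins that bind and block WNT, started from unlike positions. Sfrp1 had values of 0.06, 0 and 0.13 in Mta1-KO/Mta1 and -0.36, -0.57 and -0.41 in Mta1-KO, and of -0.03, 0.30 and 0.09 in P53-KO/Mta1 and 1.89, 1.99 and 1.97 in P53-KO, a response difference of 2.34 (standard error 0.132, adjusted p = 4.32e-08 from limma). Sfrp2 had values of 0.19, -0.0017 and 0 in Mta1-KO/Mta1 and 0.75, 0.66 and 0.67 in Mta1-KO, and of -2.67, -2.28 and -2.54 in P53-KO/Mta1 and 0.19, 0.20 and 0.14 in P53-KO, a difference of 2.05 (standard error 0.129, adjusted p = 1.35e-07 from limma). Sfrp1 was highest in P53-KO, whereas Sfrp2 was highest in Mta1-KO and low in P53-KO/Mta1. Both were lowest in WT, with Sfrp1 at -1.85, -1.65 and -1.97 and Sfrp2 at -3.45, -3.69 and -3.53. Of 32 WNT genes measured 2 were called higher (0.979% of all rows) and 0 lower (0.651% of all rows), with a median of 0.15.

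Growth factors and receptors gave 5 of 42 called higher (0.979% of all rows) and 0 lower (0.651% of all rows). The list median was 0.13, and after quantile normalization 4 were higher and 3 lower. Hgf, the ligand of the MET receptor, had values of 1.16, 1.02 and 1.21 in Mta1-KO/Mta1 and -0.07, 0.0035 and -0.23 in Mta1-KO, and of -0.16, -0.05 and 0 in P53-KO/Mta1 and 0.89, 0.77 and 0.79 in P53-KO, and it rose by 1.23 in Mta1-KO/Mta1 against -0.88 in P53-KO/Mta1. Fgf10, the receptor Egfr and the IGF-binding protein Igfbp2 had responses of 0.04, 0.24 and -0.21 in Mta1-KO/Mta1, and they fell by 1.67, 1.41 and 1.41 in P53-KO/Mta1. All 3 were lower in Mta1-KO than in P53-KO at the start, with starting differences of -1.82, -3.10 and -3.94. After quantile normalization the difference of Igfbp2 was 0.32 and not called. Vegfd, a ligand of lymphatic growth receptors, had values of 0.57 in Mta1-KO/Mta1 against -0.67 in P53-KO/Mta1, neither past 2-fold, and a called difference of 1.24.

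Contractile genes and imprinted genes gave a few large differences. The smooth muscle actin Actg2 and calponin, Cnn1, had responses of 0.02 and -0.08 in Mta1-KO/Mta1 and fell by 1.96 and 1.36 in P53-KO/Mta1. Ankrd1, a stretch-induced repeat protein, rose by 1.46 in Mta1-KO/Mta1 against 0.0049 in P53-KO/Mta1. These were the 3 of 16 contractile genes called, all higher in the Mta1-KO background (0.979% of all rows), with a list median of 0.13. The difference of Cnn1 under quantile normalization, 0.996, missed the fold limit. Of 15 imprinted genes 4 were called higher (0.979% of all rows) and 1 lower (0.651% of all rows), with a median of 0.33. The noncoding RNA H19 had values of -0.40, -0.19 and -0.36 in Mta1-KO/Mta1 and -0.14, -0.38 and 0 in Mta1-KO, and of 0.29, 0.55 and 0.62 in P53-KO/Mta1 and 3.08, 3.09 and 2.54 in P53-KO, a response difference of 2.27 (standard error 0.219, adjusted p = 8.88e-06 from limma). Its P53-KO arrays were the only high ones. Sgce, a sarcoglycan, had values of 0.01, 0 and -0.06 in Mta1-KO/Mta1 and -1.63, -1.63 and -1.65 in Mta1-KO, and of 0.73, 0.42 and 0.65 in P53-KO/Mta1 and 1.47, 1.49 and 1.51 in P53-KO, and rose by 1.62 in Mta1-KO/Mta1 against -0.89 in P53-KO/Mta1. Dio3, which inactivates thyroid hormone, had a response of 0.13 in Mta1-KO/Mta1 and fell by 1.37 in P53-KO/Mta1. The zinc finger gene Plagl1 had values of 0.70 in Mta1-KO/Mta1 against -0.56 in P53-KO/Mta1, and the gene called lower, Dlk1, a NOTCH-like ligand that holds back fat cell differentiation, had -0.98 in Mta1-KO/Mta1 against 0.15 in P53-KO/Mta1. After quantile normalization Dlk1 was not called (-0.86), which left 4 imprinted genes higher and 0 lower.

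Several interferon-induced genes fell past 2-fold in Mta1-KO/Mta1 only. Some of these, such as Psmb9 (response of -0.56), also fell in P53-KO/Mta1 by a smaller amount. Ifi27l2a, an interferon-induced mitochondrial protein, had the largest called negative difference, with values of 0.17, 0.11 and 0.10 in Mta1-KO/Mta1 and 3.22, 3.22 and 3.49 in Mta1-KO, and of -0.15, -0.32 and -0.34 in P53-KO/Mta1 and -0.06, 0 and 0.03 in P53-KO. The Mta1-KO arrays alone were high, and WT lay at -0.41, -0.29 and -0.14. It fell by 3.18 in Mta1-KO/Mta1, a fold of 9.07, against -0.26 in P53-KO/Mta1, a response difference of -2.92 (standard error 0.118, adjusted p = 2.19e-09 from limma).

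Gvin1, a very large interferon-inducible GTPase, had values of 0.65, 0.42 and 1.11 in Mta1-KO/Mta1 and 3.10, 3.21 and 3.03 in Mta1-KO, and of 0.05, -0.28 and -0.04 in P53-KO/Mta1 and 0, -0.23 and -0.18 in P53-KO, a response difference of -2.43 (standard error 0.211, adjusted p = 3.13e-06 from limma). Tgtp1, a GTPase that attacks the vacuoles of parasites, fell by 1.41 in Mta1-KO/Mta1 against -0.27 in P53-KO/Mta1, and Oas2, which makes the oligoadenylates that activate RNase L, by 1.52 in Mta1-KO/Mta1 against -0.09 in P53-KO/Mta1. Psmb9, a catalytic subunit of the immunoproteasome, had values of 0.36, 0.74 and 0.53 in Mta1-KO/Mta1 and 2.62, 2.61 and 2.96 in Mta1-KO, and of -0.69, -0.49 and -0.50 in P53-KO/Mta1 and 0.09, -0.09 and 0 in P53-KO, a difference of -1.63 (standard error 0.159, adjusted p = 9.90e-06 from limma). In all of these Mta1-KO stood above every other group. A second row of Tgtp1 was also called, with a response of -1.83 in Mta1-KO/Mta1 against 0.12 in P53-KO/Mta1 and a difference of -1.95. Gvin1 and Tgtp1 have close copies in the genome whose transcripts the same probes may read.

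The stretch with the same interferon response motif in Tgtp1 is shown as an example of the genes that fell in Mta1-KO/Mta1 (GRCm38.p6, strand of the gene, motif in capitals).
Tgtp1, interferon response motif, minus strand, chr11:48992295-48992343: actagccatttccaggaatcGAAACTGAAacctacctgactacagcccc
Its first base lies 77 bases before the start.

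Most other interferon genes were not called for the response difference. Of 30 interferon-stimulated genes measured 0 were called higher and 2 lower (median -0.16, but 0.16 after quantile normalization, so the direction of that list depends on the scaling), of 7 interferon-inducible GTPases 2 were called lower (median -0.63), and of 10 antigen presentation genes 1 was called lower (median -0.45). Without the fold limit 22 of the 30 interferon-stimulated genes were lower in Mta1-KO/Mta1, against 15.7% of all rows, and 23 were lower in P53-KO/Mta1, against 14.2% of all rows, and 0 were higher in either. Irf7 and Ifit1, for example, had values of -1.04 and -0.86 in Mta1-KO/Mta1 and of -0.66 and -0.58 in P53-KO/Mta1. The list started 2.32 higher in Mta1-KO than in P53-KO at the median, and the GTPases 3.17. Quantile normalization ended the calls of Oas2 (-0.71), Psmb9 (-0.95) and the first row of Tgtp1 (-0.58), while Ifi27l2a, Gvin1 and the second row of Tgtp1 (-1.22) stayed called.

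Nqo1 and Gstt1, enzymes of oxidant defence, fell in Mta1-KO/Mta1 as well. Nqo1, a quinone reductase driven by NRF2, had values of -0.01, 0.27 and 0.23 in Mta1-KO/Mta1 and 1.72, 1.65 and 1.71 in Mta1-KO, and of -0.34, -0.19 and 0.09 in P53-KO/Mta1 and -1.12, -0.74 and -1.23 in P53-KO. The responses drew Mta1-KO and P53-KO, which started 2.73 apart, to within 0.31 of each other, and the response difference was -2.42 (standard error 0.180, adjusted p = 7.31e-07 from limma). Gstt1, a glutathione transferase, fell by 1.88 in Mta1-KO/Mta1 against -0.14 in P53-KO/Mta1, and heme oxygenase, Hmox1, had -0.18 in Mta1-KO/Mta1 against 0.93 in P53-KO/Mta1, a called difference of -1.11. Of 19 metallothioneins and NRF2 targets measured 2 were called higher and 3 lower, with a median of -0.22. The metal-binding protein Mt2 was one of those called higher, with values of -1.17, -0.46 and -0.35 in Mta1-KO/Mta1 and -2.75, -2.64 and -2.51 in Mta1-KO, and of 3.33, 3.06 and 3.13 in P53-KO/Mta1 and 3.20, 3.51 and 3.28 in P53-KO. It rose by 1.97 in Mta1-KO/Mta1 and its P53-KO/Mta1 arrays overlapped those of P53-KO, a difference of 2.13 (standard error 0.294, adjusted p = 0.000200 from limma). The other, the aldehyde dehydrogenase Aldh3a1, fell by 1.79 in P53-KO/Mta1. Neither was called after quantile normalization (0.97 and 0.92).

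The stretches nearest the start in Gstt1, where the interferon response motif reads on the opposite strand, and in Mt2, with the AP-1 motif, are shown because both genes are of one list and moved in opposite directions in Mta1-KO/Mta1 (GRCm38.p6, strand of the gene, motif in capitals).
Gstt1, interferon response motif, minus strand, chr10:75797887-75797935: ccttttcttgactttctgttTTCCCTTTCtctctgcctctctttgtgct
Mt2, AP-1 motif, plus strand, chr8:94172519-94172565: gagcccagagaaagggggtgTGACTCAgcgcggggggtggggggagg
The first base of the motif lies 184 bases before the start in Gstt1 and 79 in Mt2.

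Lipid genes split. Lpl, lipoprotein lipase, and Apod, a lipid carrier, fell in Mta1-KO/Mta1 by 1.21 and 1.51, against -0.0011 and -0.31 in P53-KO/Mta1, and Fabp3, a fatty acid carrier, had a response of -0.12 in Mta1-KO/Mta1 and rose by 1.03 in P53-KO/Mta1. Abca1, which exports cholesterol from cells, had values of 1.10, 0.95 and 0.96 in Mta1-KO/Mta1 and 0.85, 0.87 and 0.70 in Mta1-KO, and of -1.70, -1.61 and -1.61 in P53-KO/Mta1 and -0.07, 0 and 0.08 in P53-KO. It fell in P53-KO/Mta1 alone, by 1.65, to the level of WT at -1.57, -1.58 and -1.64, a response difference of 1.84 (standard error 0.088, adjusted p = 8.23e-09 from limma). Of 19 LXR and lipid genes 1 was called higher (0.979% of all rows) and 3 lower (0.651% of all rows). The list median was -0.03. Lpl (-0.72) and Apod (-0.71) were not called after quantile normalization, and Fabp3 was not called in the fit without 4 of the 15 arrays, each left out in turn. Of 18 cholesterol synthesis genes 0 were called, with a median of 0.15.

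The largest rise of a called row was in Mta1-KO/Mta1. Akr1c18, which breaks down progesterone and can make prostaglandin F, had values of 3.76, 4.14 and 4.04 in Mta1-KO/Mta1 and -0.01, 0.05 and -0.03 in Mta1-KO, and of 1.12, 0.96 and 1.24 in P53-KO/Mta1 and -0.29, 0 and -0.31 in P53-KO. It rose in both backgrounds, by 3.98 in Mta1-KO/Mta1 (a fold of 15.8) and by 1.31 in P53-KO/Mta1 (a fold of 2.47), from starting levels 0.20 apart, and the difference was 2.67 (standard error 0.145, adjusted p = 3.34e-08 from limma). Prostaglandin genes gave 2 called higher and 2 lower of 16, with a median of 0.0053, or -0.02 after quantile normalization. The prostaglandin F receptor Ptgfr had a response of -0.17 in Mta1-KO/Mta1 and fell by 1.66 in P53-KO/Mta1. Ptgs2, the inducible cyclooxygenase, had a response of 0.62 in Mta1-KO/Mta1 and rose by 1.70 in P53-KO/Mta1, with array values of 0.56, 0.54 and 0.67 in Mta1-KO/Mta1 and -0.09, 0 and 0 in Mta1-KO, and of 1.03, 1.04 and 1.15 in P53-KO/Mta1 and -0.79, -0.54 and -0.56 in P53-KO.

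Rises past 2-fold in P53-KO/Mta1 alone were led by Stmn2, a regulator of microtubules in growing neurons. Its values were -0.04, 0 and -0.09 in Mta1-KO/Mta1 and 0.06, -0.11 and -0.02 in Mta1-KO, and 5.28, 4.89 and 5.00 in P53-KO/Mta1 and 2.90, 2.99 and 2.82 in P53-KO. The P53-KO arrays already stood above Mta1-KO and WT, and P53-KO/Mta1 rose by a further 2.16, a response difference of -2.17 (standard error 0.119, adjusted p = 3.54e-08 from limma). Il7, its measured neighbour on chromosome 3 and a growth factor of lymphocytes, had -0.59 in Mta1-KO/Mta1 and rose by 1.09 in P53-KO/Mta1. Cd109, a co-receptor that dampens TGF-beta signalling, had -0.77 in Mta1-KO/Mta1 and rose by 1.10 in P53-KO/Mta1. Sox2, a transcription factor of neural and pluripotent cells, had 0.20 in Mta1-KO/Mta1 against 1.21 in P53-KO/Mta1. The call of Sox2 was lost in the fit without 5 of the 15 arrays, each left out in turn. The BMP antagonist Grem1 had 0.25 in Mta1-KO/Mta1 and rose by 1.31 in P53-KO/Mta1, and the BMP-induced repressors Id1 and Id3 had -0.14 and -0.82 in Mta1-KO/Mta1 against 0.89 and 0.29 in P53-KO/Mta1. These 3 were all of the 31 TGF-beta and BMP genes called, with a list median of 0.05. After quantile normalization Grem1 (-0.82) and Id1 (-0.91) were not called.

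In 76 rows neither response was called. Since each response of these rows was under 2-fold, a called difference requires that they have opposite signs. Nr2f1, a nuclear receptor of neural crest cells, had 0.94 in Mta1-KO/Mta1 against -0.79 in P53-KO/Mta1, a difference of 1.73, and Apcdd1, a WNT inhibitor, had 0.70 in Mta1-KO/Mta1 against -0.87 in P53-KO/Mta1, a difference of 1.57. Hhip, a decoy receptor of hedgehog ligands, and Tceal1 had differences of 1.60 and 1.47. On the other side, Tafa5, a secreted neurokine, had -0.83 in Mta1-KO/Mta1 against 0.77 in P53-KO/Mta1, a difference of -1.60, and the G protein subunit Gnb4 -0.52 in Mta1-KO/Mta1 against 0.95 in P53-KO/Mta1, a difference of -1.47. Pola1, the catalytic subunit of DNA polymerase alpha, had -0.26 in Mta1-KO/Mta1 against 0.88 in P53-KO/Mta1, and it was the 1 of 24 DNA replication genes called (list median -0.32). Ier3, an immediate early gene, had -0.44 in Mta1-KO/Mta1 against 0.88 in P53-KO/Mta1, a difference of -1.32.

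**Figure D3:**
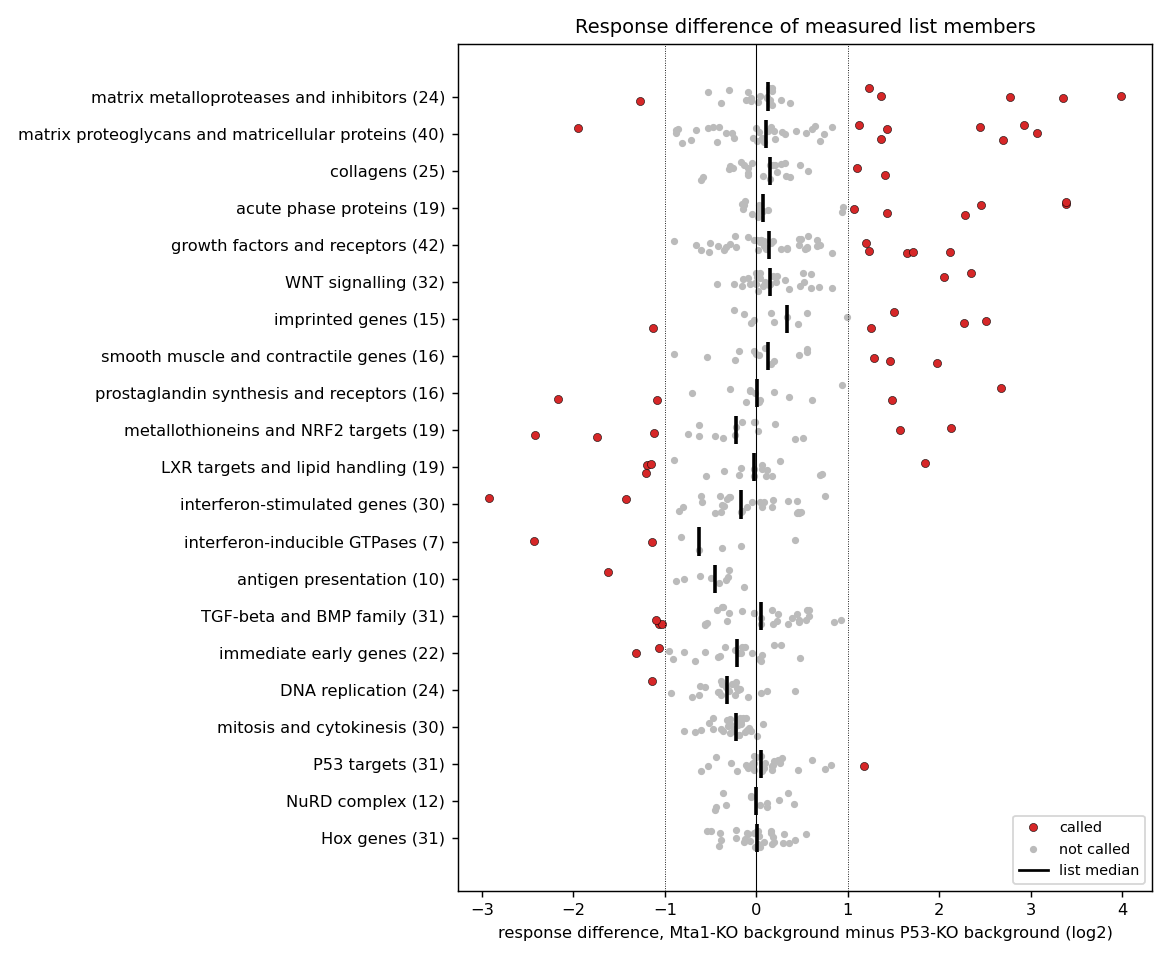
Response difference (log2, x axis) of the measured members of 21 gene lists, with called members in red, the others in grey, list medians as black bars and dotted lines at a difference of 1 in either direction. Called members lie mostly to the right in the matrix protease, matrix protein and acute phase lists and to the left in the interferon lists, while the medians of all 21 lists lie between -0.63 and 0.33.

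Lists of the cell cycle, of P53 and of chromatin held 0 or 1 called members each. With 1.63% of all rows called, such counts do not set lists of this size apart from all rows. Of 30 mitosis genes 0 were called for the response difference by limma. Without the fold limit 9 were lower in the Mta1-KO background (10.1% of all rows were) and 0 higher (7.31% of all rows), with a median of -0.23. In the Mta1-KO background 13 of these 30 were higher with Mta1 at that threshold, against 12.4% of all rows, and in the P53-KO background 26 were, against 15.7% of all rows. Of 31 P53 targets 1 was called, the phosphatase Dusp14, which rose by 1.35 in Mta1-KO/Mta1 against 0.17 in P53-KO/Mta1, and the median was 0.06. Of 12 measured NuRD subunits 0 were called, with response differences from -0.45 for Mbd3 to 0.41 for Gatad2b, and 2 were higher and 3 lower with no minimum fold. Of 31 Hox genes 0 were called, 1 higher and 1 lower with no minimum fold, with a median of 0.0025, and of 12 complement genes 0 were called, with 2 higher and 0 lower. Over all rows 1.63% were called, and with no minimum fold 7.31% were higher and 10.1% lower.

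Genes that the study followed up were measured as well. AW551984, the mouse counterpart of human VWA5A, had values of 0.23, 0.35 and 0.39 in Mta1-KO/Mta1 and 3.10, 3.30 and 2.95 in Mta1-KO, and of -0.29, -0.12 and -0.30 in P53-KO/Mta1 and -0.0041, 0.07 and 0 in P53-KO. It fell by 2.79 in Mta1-KO/Mta1 against -0.26 in P53-KO/Mta1, a response difference of -2.53 (standard error 0.119, adjusted p = 7.09e-09 from limma). Egr2, a zinc finger factor induced by serum, had values of -0.05, 0.01 and -0.16 in Mta1-KO/Mta1 and 1.10, 1.04 and 1.13 in Mta1-KO, and of -0.10, -0.10 and 0.09 in P53-KO/Mta1 and 0.04, 0.15 and 0 in P53-KO, a difference of -1.06 (standard error 0.125, adjusted p = 5.38e-05 from limma), which was -0.94 and not called after quantile normalization. Egr2 and Ier3 were the 2 immediate early genes called of 22, and the list median was -0.21. Klf15, a factor of glucose and amino acid metabolism, had a response of 0.05 in Mta1-KO/Mta1 and fell by 1.69 in P53-KO/Mta1, a difference of 1.74 (standard error 0.147, adjusted p = 2.32e-06 from limma). Jade1, a subunit of a histone acetyltransferase complex, Hmmr, a hyaluronan receptor of the mitotic spindle, and the ubiquitin ligase Rnf144a had a called response in one background only, and their differences of 0.73, -0.67 and 0.71 did not reach a fold of 2. The paralogues Mta2 and Mta3 had differences of -0.06 and 0.12 and were not called.

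Many of the rows with unlike responses also started at unlike levels. Starting levels, Mta1-KO minus P53-KO, share their arrays with the response difference and add up with it to the difference at the end, so the values are given side by side with no test. Over all rows the starting difference had a median of -0.0037 and quartiles of -0.18 and 0.23. For the 100 rows that fell in P53-KO/Mta1 only it had a median of -1.82 (quartiles -2.69 and -0.84), and the difference at the end, Mta1-KO/Mta1 minus P53-KO/Mta1, had a median of -0.15 (quartiles -0.90 and 0.38). These rows lay in Mta1-KO/Mta1 a median of 0.14 above WT, in Mta1-KO 0.14, in P53-KO/Mta1 0.62 and in P53-KO 2.31. Before Mta1 they were thus high in P53-KO and near WT in Mta1-KO, where the centred values do not show whether a row was above background.

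The rows that fell in Mta1-KO/Mta1 only mirrored this. For these 37 rows the starting difference had a median of 2.06 (quartiles 1.41 and 2.91) and the difference at the end 0.56. Against WT their medians were 0.48 in Mta1-KO/Mta1, 2.37 in Mta1-KO, 0.02 in P53-KO/Mta1 and 0.21 in P53-KO. After quantile normalization 17 of these 37 stayed called, with a median start of 1.57, and 78 of the 100 above did, with a median start of -1.75. The starting differences of Ifi27l2a, AW551984 and Gvin1 were 3.32, 3.09 and 3.25, and those of Mmp13, Mmp3 and Saa3 were -4.88, -4.43 and -4.33.

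**Figure D4:**
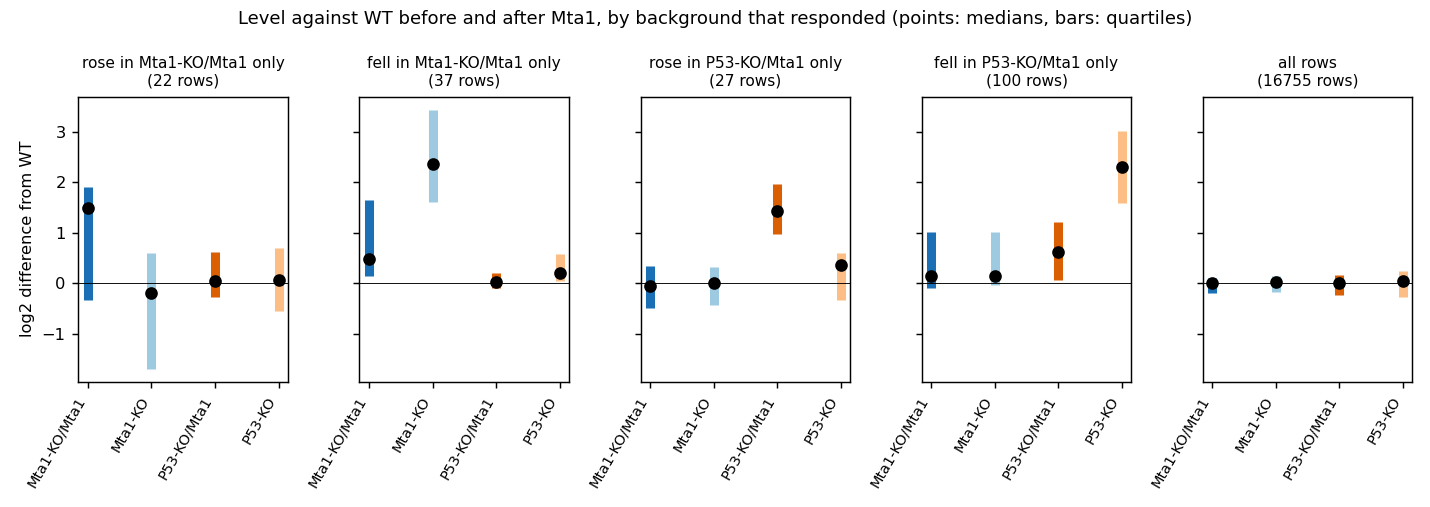
Log2 difference from WT (y axis) in the 4 groups for rows called unlike whose own response was called in 1 background only, by the direction of that response, and for all 16755 rows; points are medians over rows and bars run from the first to the third quartile. Rows that fell in a background stood high there before Mta1, with medians of 2.37 in Mta1-KO and 2.31 in P53-KO. Rows that rose lay on both sides of WT before Mta1. Their quartiles were -1.69 and 0.60 in Mta1-KO and -0.34 and 0.59 in P53-KO.

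Rows that rose had starting differences of both signs, smaller at the median than those of rows that fell. The 22 rows that rose in Mta1-KO/Mta1 only had a median starting difference of -0.68 (quartiles -2.11 and 0.26) and ended at 0.88. Their medians against WT were 1.49 in Mta1-KO/Mta1 and -0.19 in Mta1-KO. The 27 that rose in P53-KO/Mta1 only had a median start of -0.32 (quartiles -0.90 and 0.74) and ended at -1.51. Their medians against WT were 1.43 in P53-KO/Mta1 and 0.35 in P53-KO. Without the sign, the starts of these 22 and 27 rows had medians of 0.97 and 0.88, against 0.20 over all rows. For the 37 and 100 rows that fell these medians were 2.06 and 1.82. Some genes with like starts ended far apart. Ogn had a difference of 0.70 at the start and 3.76 at the end, Lbp -0.37 and 3.01, Lcn2 -0.23 and 2.23, and Akr1c18 0.20 and 2.87. Others, such as Cxcl15 with -3.52 and 0.00045 and Mmp9 with 1.30 and 0.03, started far apart and ended together.

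The shares of promoters of called genes that held the searched motifs are given beside those of all measured genes, with small numbers and no test. Stretches of 250 bases before to 50 after the start came from RefSeq (GRCm38.p6) and were found for 11869 of 14860 measured genes, 117 of the 146 genes called higher and 60 of the 93 called lower. The AP-1 motif TGANTCA, to which FOS and JUN bind, was present on either strand in 10.3% of promoters of genes called higher, in 13.3% of those called lower and in 8.06% of all. The interferon response motif GAAANNGAA was present in 10.3%, 13.3% and 8.97%, and the NF-kB motif GGGANTTTC in 0.855%, 1.67% and 1.28%. The serum response element was present in 0.855%, 1.67% and 1.56%, and a single P53 binding unit, of which a full P53 element holds a pair, in 7.69%, 11.7% and 8.57%. The motifs may overlap one another. Of the 17 promoters at hand for genes that fell in Mta1-KO/Mta1 only, 5 (29.4%) held the interferon motif and 3 (17.6%) the AP-1 motif. Of the 70 for genes that fell in P53-KO/Mta1 only, 8 (11.4%) and 6 (8.57%) did, against 8.97% and 8.06% of all. A match is a description of letters and not of binding.

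Mmp13 and Mmp3 fell in P53-KO/Mta1 and Mt2 rose in Mta1-KO/Mta1, so genes with AP-1 letters near the start, shown above, moved in different directions and backgrounds.

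Few of the called genes lay side by side. Of 239 genes placed on the chromosomes, 12, in 6 groups, lay next to a called gene of the same direction. Next means the measured gene before or after in chromosome order, at any distance. How many would do so by chance was not tested. The groups were Adamts1 with Adamts5, Il7 with Stmn2, Aldh1a1 with Aldh1a7, Ces1f with Ces1g, C4bp with Pfkfb2 and Slc16a13 with Bcl6b. Aldh1a1 with Aldh1a7 and Ces1f with Ces1g are close copies of each other, whose probes may share signal. The protease genes Mmp8, Mmp10 and Mmp12 of the same family as Mmp3 and Mmp13 had differences of 0.02, 0.12 and -0.05 and were not called.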

How the data were processed

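Gene-level RNA of 15 Affymetrix Mouse Exon 1.0 ST arrays, 3 in each of 5 groups, was analysed. The authors used GeneSpring GX 10.0.2. What they deposited is a table of normalized log2 values in which every row has a median of 0 over the arrays; how exon probes were summarized was not stated in the sources used here. The centring removes signal levels, so no level or background is known, and the number of arrays limits the precision. Probe annotation gave 14996 rows with a single gene, 1019 with several and 740 with none; 14941 matched a RefSeq gene table by Entrez ID. No gene was named from rows with several genes. For the 135 genes with several rows the row with the largest variance was used.

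A mean for each group was fitted with limma 3.58.1 (R 4.3.3; 10 residual and 3.46 prior degrees of freedom), and p-values were Benjamini-Hochberg adjusted over all rows. The threshold, an adjusted p below 0.05 with at least a 2-fold difference, is that of the study. The study used a t-test for pairs of groups, which cannot test a difference of responses, so it was an alternative. The contrast was tested on simulated data. Alternatives were other normalizations, fold rules, variance settings, samples and each array left out in turn.

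Members and the 30 gene lists (704 genes, 585 with a row of their own) were chosen with earlier results of these data known. Named genes are the 12 largest called differences in each direction, the 6 largest of each class, up to 5 called members of each list and the genes the study followed; other names were chosen after their values were seen. Plots were made in Python 3.11.15 with matplotlib 3.10.9.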

Additional observations from a re-analysis of the deposited data

Results flagged for a closer look

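The response to Mta1 differed between the Mta1-KO and the P53-KO background in 273 rows by limma's test of the difference itself. In 4 genes both responses were called and opposed, so that each background alone would give the opposite direction: the response difference was 4.46 for Npr3, 2.70 for Npy1r, 2.21 for Tmem45a and -2.17 for Pla2g7. The difference of all 4 stayed called under quantile normalization, array median centring, the block and each array left out in turn, but only Npr3 kept both responses called and opposed in all of these. After quantile normalization the responses of Pla2g7 were -0.54 in Mta1-KO/Mta1, against 0.84 in P53-KO/Mta1, and that of Tmem45a in P53-KO/Mta1 was -0.80. The response of Pla2g7 in P53-KO/Mta1 missed the fold limit (0.96 to 0.98) without replicate 1 or 3 of P53-KO/Mta1 or of P53-KO, and that of Tmem45a did without replicate 2 of P53-KO/Mta1 (-0.97) or of P53-KO (-0.93). The response of Npy1r in Mta1-KO/Mta1 was 0.96 without replicate 2 of Mta1-KO.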

How the results depend on the processing

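Of the 78 named genes called for the response difference, 42 stayed called in all 23 alternatives and 0 changed sign. Requiring the fold of 2 in the null (treat) left 77 rows for the response difference, 54 for the response in Mta1-KO MEFs, 100 for that in P53-KO MEFs, 824 for the starting level difference and 581 for the end level difference, against 273, 186, 271, 1500 and 1180; it tests a stricter hypothesis, and 35 of the 78 genes were not called under it. With no minimum fold the counts were 2913, 4698, 5003, 7931 and 7292. Quantile normalization called 310 rows for the response difference, of which 214 were among the 273, ended the call of 14 of the 78 genes, and set the share of higher calls at 52.5% for the starting level difference and 51.1% for the end level difference, against 62.7% and 61.2%; the cause was not tested. Without moderation of the variance 272 rows were called and Fabp3 was lost. Leaving out each of the 15 arrays in turn gave 268 to 290 rows for the response difference, 173 to 209 and 271 to 308 for the responses in Mta1-KO and P53-KO MEFs, 1429 to 1571 for the starting level difference and 1142 to 1252 for the end level difference, and the genes Egr2, Fabp3, Id1, Id3 and Sox2 lost their call without 1 or more arrays. Of the genes not called, Mta2 turned to 0.0173 under quantile normalization and Mta3 ranged from -0.0021 (without P53-KO replicate 2) to 0.194 over the arrays left out. Replicate numbers share only a number: same-numbered arrays of Mta1-KO/Mta1 and Mta1-KO deviated with correlations of 0.07, -0.38 and -0.20 and those of P53-KO/Mta1 and P53-KO with 0.26, 0.02 and -0.0092; between backgrounds the correlations were 0.20, 0.09 and 0.19 for Mta1-KO/Mta1 with P53-KO/Mta1 and 0.09, 0.30 and 0.20 for Mta1-KO with P53-KO. With the replicate number as a block 274 rows were called for the response difference (186, 271, 1500 and 1180 for the other 4), and no named gene changed its call. With all rows of each gene, 65 list members were called, as with 1 row a gene. A filter on dim rows was not possible, since the centred values hold no level.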

Other observations

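Some called genes outside the lists are given here as values, each chosen after its value was seen; their relatives that were not called were not counted, so nothing is said of a pathway or family. The sulfatases Sulf1 and Sulf2, which trim heparan sulfate, had responses of 0.23 and 0.01 in Mta1-KO/Mta1 and fell by 1.27 and 1.11 in P53-KO/Mta1. The cGMP-dependent kinase Prkg1 had a response of 0.00058 in Mta1-KO/Mta1 and fell by 1.64 in P53-KO/Mta1. The phosphodiesterase Pde1b fell by 1.24 in Mta1-KO/Mta1 against -0.19 in P53-KO/Mta1. The carboxylesterases Ces1d, Ces1f and Ces1g fell by 1.07, 1.42 and 1.50 in Mta1-KO/Mta1, against -0.04, -0.02 and -0.34 in P53-KO/Mta1, the last with an adjusted p of 0.00196 from limma. These 3 are close copies, and how far their probes share signal is not known here.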
